A study of Mus musculus with 8 samples.

Results

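The cytosolic ribosomal protein genes encode the proteins of the large and the small subunit of the ribosome that translates nuclear-encoded mRNAs. Members were the rows of the gene table whose name has the form Rpl or Rps with a number, or is Rplp0 to Rplp2 or Rpsa, with names of the Rps6k kinases left out, and with 10 or more counts in 3 or more libraries. Of 94 rows with such a name, 91 met the count rule, among 55487 genes in the table, and the 3 that did not (Rpl10l, Rps12l1 and Rps23rg1) had 0 counts in every library. The members comprise 37 small-subunit names, 51 large-subunit names and the 3 stalk proteins Rplp0, Rplp1 and Rplp2. The name rule is wider than the ribosome. It takes Rps19bp1, which encodes a binding partner of a ribosomal protein, and 6 rows that GENCODE annotates as pseudogenes (Rpl32l, Rpl37rt, Rpl6l, Rps3a2, Rps3a3 and Rps4l), which leaves 84 protein-coding members other than Rps19bp1.

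The RNA came from muscle stem cells (MuSCs, the resident stem cells that repair skeletal muscle) of young male C57BL/6J mice, 21 days after denervation (DEN), in which the sciatic nerve of one leg was transected, or after Sham surgery, in which the nerve was located but left intact. Hind limb muscle was dissociated, and the cells taken by flow cytometry carried α7-integrin on their surface but neither Sca-1, the myeloid and pan-leukocyte antigens CD11b and CD45, nor the endothelial antigen CD31. No transgene was involved, and every mouse of both groups carries the same strain background. There were 4 DEN and 4 Sham libraries, and DEN replicate 1, which the study set aside after inspecting a multidimensional scaling plot, is given apart from the comparison of 3 DEN with 4 Sham libraries. The DEN libraries compared held between 28541080 and 31572843 counts each, DEN replicate 1 held 26627173, and the Sham libraries held between 29048620 and 34145854.

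Each ribosome carries 1 copy of most of its proteins, so the cell has to make them in near-equal numbers. In mammals their mRNAs begin with a cytosine followed by a run of pyrimidines, the 5′ terminal oligopyrimidine (TOP) motif, through which the mTORC1 kinase pathway and the RNA-binding protein LARP1 raise or lower the translation of the whole class. Stem cells that are at rest hold translation low, and ribosome production is turned up as they enter the cell cycle. The measurement here is of mRNA level and says nothing of how well each mRNA is translated. In RNA from a bulk of sorted cells, fewer cells of a type and less RNA per cell cannot be told apart.

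The windows around annotated transcription starts held the TOP motif in a larger share of members than of all genes, though not in most members at the exact start. RefSeq start windows matched 67 of the 91 members. A C at the annotated start followed by at least 4 further C or T, read on the gene's own strand, was present in 15 of the 67 members (22.4%), against 3.01% of 27025 genes with a window. A run of that kind beginning within 10 bases of the start was present in 59.7% of the members, against 34.4% of all genes. The windows printed here hold 10 bases before the start and 20 from it, on GRCm38, and capitals mark the pyrimidine run at the start. They were chosen to show long runs (Rpl15, Rpl35 and Rps6) and a gene with its retrogene copy (Rps27 and Rps27rt). Rps6 encodes the protein that S6 kinases phosphorylate. Rps27l and Rpl3l were chosen as paralogues with no such run at the annotated start, which most members also lack. Each of them has a run of that kind beginning within 10 bases after the start.
Rpl15 (chr14:18270967-18270996, minus strand): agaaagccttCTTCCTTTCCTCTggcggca
Rpl35 (chr2:39005112-39005141, minus strand): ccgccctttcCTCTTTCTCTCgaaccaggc
Rps6 (chr4:86857348-86857377, minus strand): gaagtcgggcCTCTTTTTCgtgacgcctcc
Rps27 (chr3:90213629-90213658, minus strand): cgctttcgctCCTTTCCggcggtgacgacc
Rps27rt (chr9:114982720-114982749, minus strand): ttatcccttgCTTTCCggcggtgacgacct
Rps27l (chr9:66946076-66946105, plus strand): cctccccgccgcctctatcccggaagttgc
Rpl3l (chr17:24727816-24727845, plus strand): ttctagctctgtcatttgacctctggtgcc
The Rps27 and Rps27rt windows share a stretch of 19 bases with a shift of 1 base, since it begins at base 2 of the Rps27 start and at base 1 of the Rps27rt start. A match at an annotated start is a description of the letters there, and an annotation that is off by a few bases hides the motif.

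Relative to library size, the cytosolic ribosomal protein genes were expressed at nearly the same level in DEN and Sham MuSCs. A change in total RNA per cell would not show in these values. Of the 91 members, 0 were called at an adjusted p under 0.05 by edgeR's quasi-likelihood test, where 10.6% of the 17454 genes tested were called (5.29% higher and 5.32% lower in DEN), and 3 had an unadjusted p under 0.05, where 25.4% of all genes did. DESeq2 also called 0 members, where 15.2% of all genes were called. In 0 members were the normalized levels of the 3 DEN libraries all above or all below those of the 4 Sham libraries, where 23.4% of all genes had groups without overlap. Since members moved together between libraries (median pairwise Pearson correlation 0.80), these counts and those of the intervals below are not 91 separate observations. The median log2 fold change of the members, DEN over Sham, was 0.05, with 63 members above 0 and 28 below, and the median over all genes tested was -0.001. The tally rests on DEN replicate 4: without it 21 members lay above 0 and the median was -0.08, and without it and Sham replicate 1, 37 lay above 0 and the median was -0.02. The median size of the change, ignoring its sign, was 0.07 over the members and 0.19 over all genes. It was 0.09 over mitochondrial ribosomal protein genes and 0.16 over ribosome biogenesis genes.

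The intervals show how large a change these libraries leave room for. The 95% interval of the log2 fold change lay within 0.5 of 0 on both sides for 87 of the 91 members (95.6%), against 43.95% of all genes. This was not particular to the members: the share was 93.5% for mitochondrial ribosomal protein genes and 92.3% for initiation factors. It was 78.05% for ribosome biogenesis genes and 55.6% for genes of the mTORC1 pathway and TOP mRNA control. Over these 87 members the fold changes ran from -0.19 for Rpl39 to 0.23 for Rpl41. The 4 members with wider intervals were Rpl3l, Rpl39l, Rps10 and the pseudogene Rpl32l, each with at most 307 counts in any library. The standard error of a member had a median of 0.11, and of all genes 0.15.

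**Figure D1:**
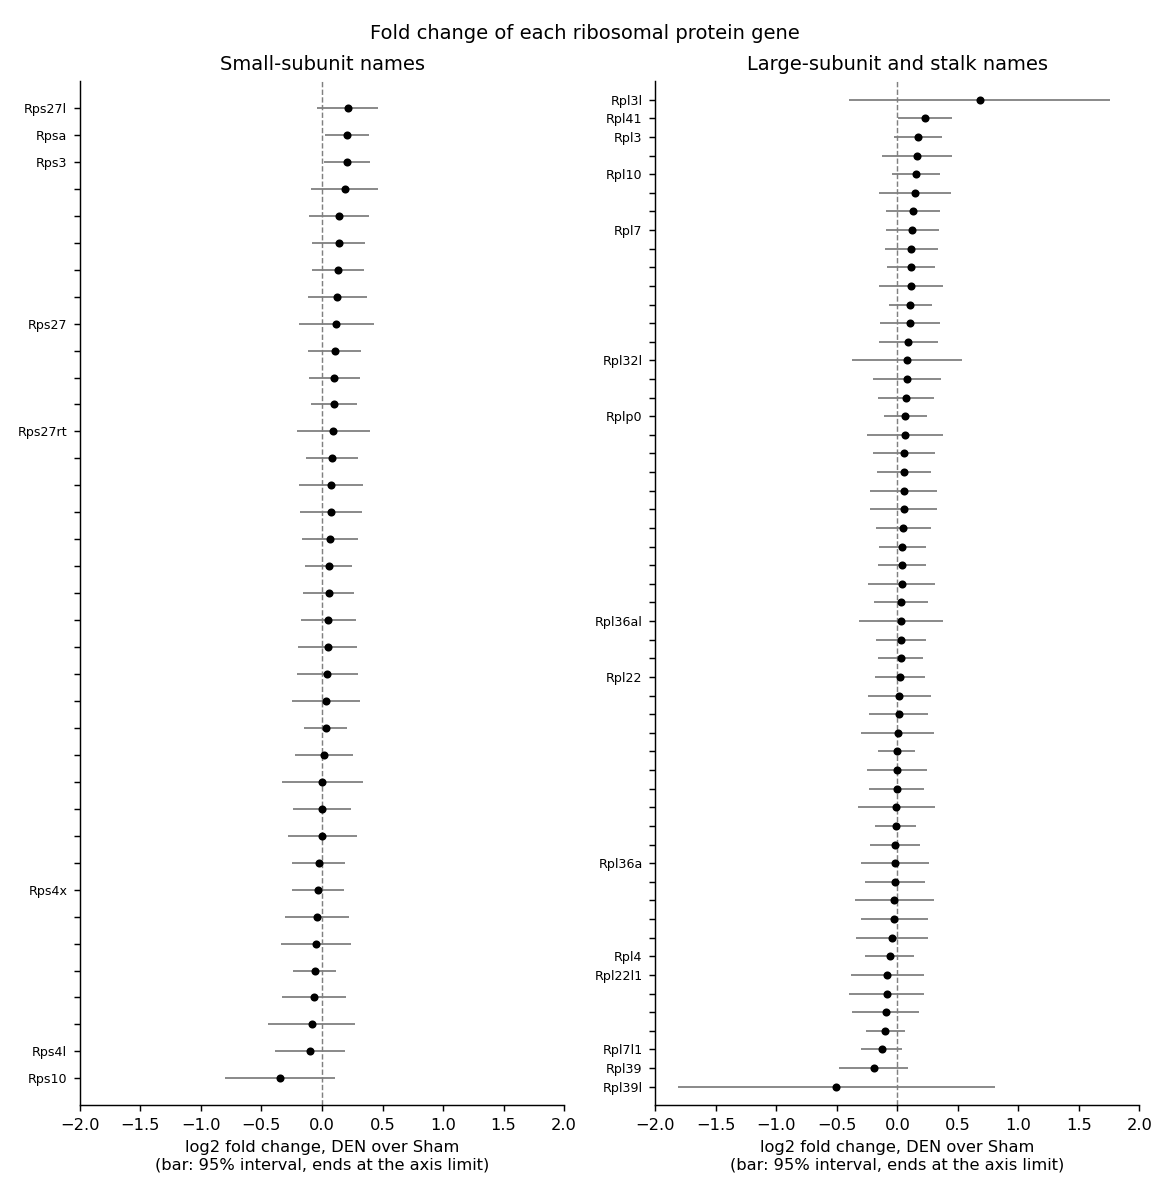
Log2 fold change, DEN over Sham, of each of the 91 members (points, with names only for members described in the text) with its 95% interval (bars), in separate panels for small-subunit names and for large-subunit and stalk names. The points gather close to 0, and the widest intervals belong to Rpl39l and Rpl3l.

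By subunit, the values were close to each other. The median log2 fold change was 0.05 over the 37 small-subunit names (28 above 0), 0.03 over the 51 large-subunit names (32 above 0) and 0.05 over the 3 stalk proteins (3 above 0), and 0 members were called in each. The 84 protein-coding members had a median of 0.05, with 0 called. The 6 pseudogene rows had a median of 0.02, with 0 called. Relative to the sum of the members' own counts, 0 members were called and 0 had an unadjusted p under 0.05, where 6.1% of all genes were called. This scaling was applied to all genes tested, and calls among them were 1065, against 1853 in the main fit. The absence of calls therefore does not show that no member changed against the rest of the class.

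As a share of all counts, the members together took 2.30%, 2.21% and 2.74% in DEN replicates 2, 3 and 4, against 2.59%, 2.28%, 2.16% and 2.23% in Sham replicates 1 to 4. DEN replicate 1 had 2.64%. The groups overlapped, with DEN replicate 4 and Sham replicate 1 the highest of their groups. The mean share was 2.42% ± 0.285 in DEN and 2.32% ± 0.191 in Sham libraries (SD, n = 3 and 4), and the difference of 0.102 percentage points was smaller than the pooled SD of 0.233.

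**Figure D2:**
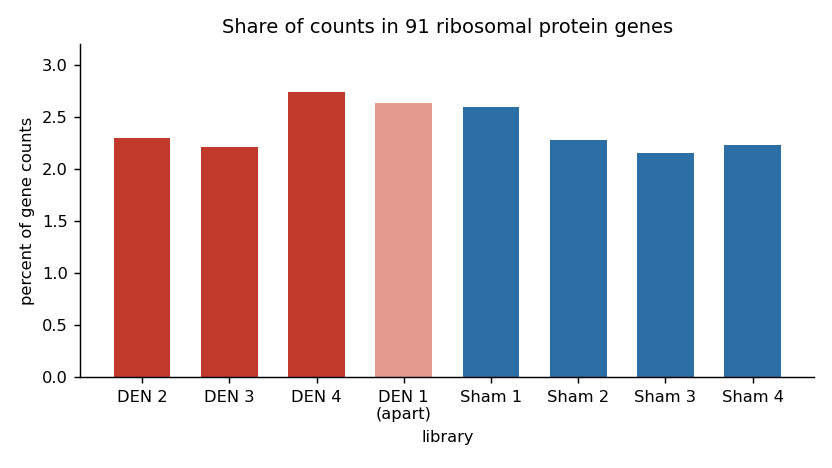
Percent of gene counts that fell on the 91 members (bars), for each library, with DEN libraries in red, DEN replicate 1 in pale red and Sham libraries in blue. DEN replicate 4 at 2.74% and Sham replicate 1 at 2.59% stand highest among the 7 libraries compared.

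The members moved together from library to library, in both groups. The median log2 deviation of the members from their Sham mean was -0.03, -0.12 and 0.27 in DEN replicates 2, 3 and 4, against 0.16, -0.01, -0.07 and -0.08 in Sham replicates 1 to 4. In DEN replicate 4, 84 of 91 members lay above the Sham mean, and in DEN replicate 3, 14 did. In Sham replicate 1, 87 of 91 members lay above it, and in Sham replicate 4, 8 did. DEN replicate 4 was the highest of the 3 DEN libraries for 84 members, and Sham replicate 1 the highest of the 4 Sham libraries for 82. The SD between libraries of a group had a median of 0.17 over the members, against 0.19 over all genes tested. For the members it was 0.08 once their own median in each library was taken away, a step not taken for other genes. Pairs of members had a median Pearson correlation of 0.80 over the 7 libraries, which share depth and scaling between all genes of a library.

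**Figure D3:**
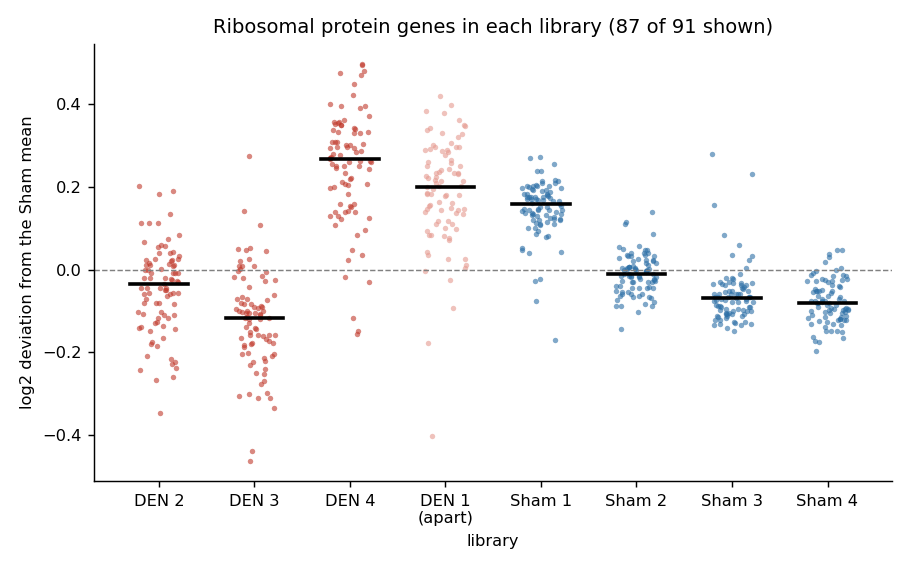
Log2 deviation from the Sham mean (vertical axis) of members in each library, with 1 point per member for the 87 with narrow intervals and a black line at the median of all 91. The medians run from -0.12 in DEN replicate 3 to 0.27 in DEN replicate 4, with the Sham libraries between -0.08 and 0.16.

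Short genes outside the members moved in the same direction in DEN replicate 4. The 2232 other genes with exons under 1000 bases had a median deviation of 0.19 there, against -0.06 for the 10284 with 3000 bases or more. In DEN replicate 1 the median for short genes was 0.12. In DEN replicates 2 and 3 and the Sham libraries, the median for short genes lay between -0.04 and 0.05. Among the members of DEN replicate 4, the 19 under 1000 bases had a median of 0.30 and the other 72 had 0.26. The part of transcript length in the members' shift was not tested.

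In DEN replicate 1 the members were high as well. Its median deviation from the Sham mean was 0.20, with 84 of 91 members above it. With all 8 libraries compared, 0 of the 90 members tested were called, where 11.5% of all genes were called, and the median log2 fold change was 0.07.

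Per length, the members spanned a wide range of mRNA levels. Reads scaled by gene length and library total (RPKM) had a median of 101 over the 91 members, with quartiles of 52.8 and 209, and 5 members lay under 10. Small-subunit names had a median of 142 RPKM and large-subunit names of 81.4 RPKM. The length behind RPKM equals the summed exon bases of the GENCODE gene for all 91 members, and in 17 of them the longest transcript covers under 50% of it, so that RPKM understates those genes.

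Rplp0 and Rpl4 were among the 3 members with the highest RPKM. Rplp0, the base of the stalk that elongation factors dock on, had 608, 572 and 643 RPKM in DEN replicates 2 to 4, against 626, 562, 533 and 601 RPKM in Sham replicates 1 to 4. Rpl4, which reaches into the exit tunnel of the large subunit, had 491, 492 and 557 RPKM in DEN, against 603, 514, 483 and 549 RPKM in Sham libraries. The groups overlapped for both genes, and the log2 fold changes were 0.07 (SE 0.08) for Rplp0 and -0.06 (SE 0.09) for Rpl4.

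The 3 members with an unadjusted p under 0.05 in edgeR's quasi-likelihood test were each higher in DEN on average, and were chosen for naming after their values were seen. Rpsa (chr9:120127689-120132369), a small-subunit protein that is also known as a laminin receptor, had 219, 234 and 213 RPKM in DEN, against 218, 182, 180 and 191 RPKM in Sham libraries. Only Sham replicate 1 reached the DEN range. Its log2 fold change was 0.21 (SE 0.08), with an adjusted p of 0.145. Rps3 (chr7:99477896-99483738), which lines the mRNA entry channel, had 194, 182 and 206 RPKM in DEN, against 190, 167, 152 and 166 RPKM in Sham libraries, and a log2 fold change of 0.20 (SE 0.09). Rpl41 (chr10:128548114-128549305), the smallest protein of the ribosome, had 288, 277 and 371 RPKM in DEN, against 281, 271, 253 and 259 RPKM in Sham libraries, and a log2 fold change of 0.23 (SE 0.10), which was 0.090 without DEN replicate 4. Without Sham replicate 1, Rpsa was called higher in DEN, with a log2 fold change of 0.27 and an edgeR adjusted p of 0.0461.

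Several members have a paralogue or a close copy, and only some of these are known to replace their partner in certain tissues. Levels within such pairs were compared as the paralogue's RPKM in percent of its partner's. The groups overlapped in all 7 pairs measured. The Rpl10 partner Rpl10l, which is made in testis, had 0 counts in every library. Of 7 testis markers, a list that includes Rpl10l itself, 0 passed the filter.

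Rpl3l (chr17:24727820-24736143) replaces Rpl3 in the ribosomes of mature skeletal and heart muscle fibres. Rpl3l had 1.07, 1.20 and 1.32 RPKM in DEN replicates 2 to 4, against 1.33, 0.178, 0.712 and 0.764 RPKM in Sham libraries, and 1.07 RPKM in DEN replicate 1. Rpl3 had 228, 239 and 259 RPKM in DEN, against 243, 203, 195 and 221 RPKM in Sham libraries. Rpl3l therefore stood at 0.493% ± 0.0215 of Rpl3 in DEN and 0.336% ± 0.189 in Sham libraries (SD, n = 3 and 4), with Sham replicate 1 above every DEN library at 0.547%. Its log2 fold change of 0.68 (SE 0.49) was not called, with an edgeR adjusted p of 0.435, and it rests on 10 to 72 counts a library. Markers of the myofibre moved with the groups: 11 of 12 tested were called higher in DEN, and their summed level was 917 to 986 CPM (counts scaled to the library total) in DEN and 241 to 397 in Sham libraries. Their part in the Rpl3l values was not tested.

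Rpl39 (chrX:37082520-37085402), a small protein of the exit tunnel, had 83.2, 78.6 and 116 RPKM in DEN, against 104, 102, 117 and 101 RPKM in Sham libraries. DEN replicate 4 was apart from the other DEN libraries and within the Sham range. The log2 fold change was -0.19 (SE 0.13). Without DEN replicate 4, Rpl39 was the 1 member called, with a log2 fold change of -0.39 and an edgeR adjusted p of 0.0338. Without DEN replicate 4 and Sham replicate 1 it was again the 1 member called, at -0.40 and an edgeR adjusted p of 0.0459. Rpl39l, its copy best known from testis, was at 0.569, 0.381 and 0.211 RPKM in DEN, against 0.987, 0.634, 0.331 and 0.245 RPKM in Sham libraries, from 5 to 27 counts.

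Rps27 and Rps27l differ by only a few residues. Rps27 had 322, 290 and 445 RPKM in DEN, against 369, 338, 291 and 302 RPKM in Sham libraries. Rps27l, a p53 target in human cells, had 127, 116 and 164 RPKM in DEN, against 121, 128, 111 and 109 RPKM in Sham libraries. Both were highest in DEN replicate 4. Rps27l was at 38.8% ± 1.66 of Rps27 in DEN and 36.3% ± 2.43 in Sham libraries (SD, n = 3 and 4).

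Rpl22 binds RNA outside the ribosome as well as within it, and Rpl22l1 is its paralogue. Rpl22 had 38.2, 36.7 and 43.6 RPKM in DEN, against 44.5, 37.1, 35.8 and 38.1 RPKM in Sham libraries. Rpl22l1 had 9.59, 9.67 and 11.7 RPKM in DEN, against 9.66, 11.8, 12.6 and 9.67 RPKM in Sham libraries. The ratio was 26.1% ± 0.885 in DEN and 28.5% ± 6.16 in Sham libraries (SD, n = 3 and 4), so the Sham libraries spread more widely around a similar mean.

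Rpl7l1, whose yeast counterpart acts in ribosome assembly, had the largest difference in ratio of the 7 pairs against the pooled SD, at 1.79 times that SD. It had 38.5, 35.5 and 37.7 RPKM in DEN, against 41.9, 43.4, 36.3 and 41.3 RPKM in Sham libraries. Rpl7 had 191, 169 and 218 RPKM in DEN, against 201, 170, 166 and 171 RPKM in Sham libraries. Rpl7l1 was at 19.5% ± 1.94 of Rpl7 in DEN and 23.1% ± 2.1 in Sham libraries (SD, n = 3 and 4), with DEN replicate 3 at 21.0% just above Sham replicate 1 at 20.9%. Its own log2 fold change was -0.13 (SE 0.08).

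The other pairs gave ratios that differed by less than the spread between libraries. Rpl36al was at 13.4% ± 0.391 of Rpl36a in DEN and 13.0% ± 1.45 in Sham libraries (SD, n = 3 and 4). Rps4l, an autosomal row that GENCODE calls a transcribed processed pseudogene, was at 8.70% ± 1.65 of the X-linked Rps4x in DEN and 9.13% ± 1.65 in Sham libraries (SD, n = 3 and 4). Rpl10, an X-linked protein of the large subunit, had 185, 167 and 193 RPKM in DEN, against 187, 157, 149 and 161 RPKM in Sham libraries.

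**Figure D4:**
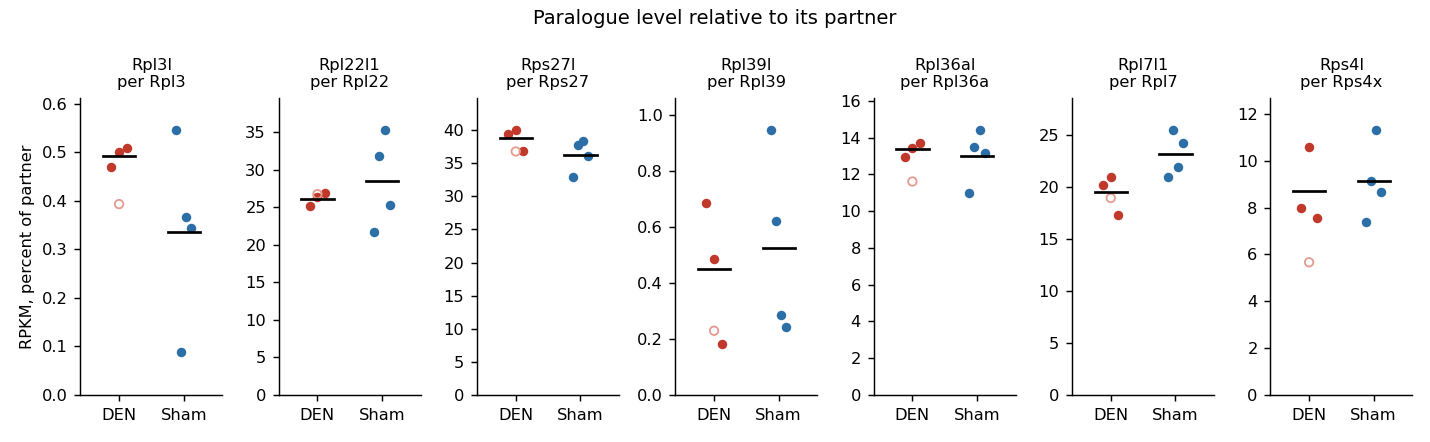
RPKM of a paralogue in percent of its partner's, for 7 pairs, with a point for each of 3 DEN (red) and 4 Sham (blue) libraries, an open circle for DEN replicate 1 and a black line at the group mean. The groups overlap in every panel, and Rpl7l1 per Rpl7 shows means of 19.5% in DEN and 23.1% in Sham libraries.

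Ribosomal protein genes have many processed copies in the genome, and this bears on what each row counts. In 87 of the 91 members some 75-base stretch of a transcript also occurs in a transcript of another gene, and Rps19bp1, Rpl3l and Rpl39l were among the 4 exceptions. The share of such stretches had a median of 19.1% and was highest in the retrogene Rps27rt, at 90.3%. Rps27rt was at 137, 123 and 182 RPKM in DEN, against 159, 143, 125 and 127 RPKM in Sham libraries. Its reads along those stretches cannot be told apart from reads of the 4 genes that share them. The part shared with Rps27 alone was not measured. Since each read kept 1 alignment, the level of a single such row is uncertain.

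The clearest case was Rps10, a protein in the head of the small subunit (chr17:27630418-27636669), chosen after its values were seen. It had 0.994, 1.11 and 1.24 RPKM in DEN, against 1.48, 1.15, 1.43 and 1.61 RPKM in Sham libraries, the lowest of the small-subunit names. Rows named as its pseudogenes held 89.0% of the counts summed over Rps10 and them, and 28.7% of its exon bases overlap other genes. Its log2 fold change was -0.35 (SE 0.21) by itself and 0.04 with the pseudogene rows added. Across the class, 63 members have such rows, and in Rps10, Rpl23a and Rpl17 these held over 50% of the summed counts. Adding them to their parents gave 0 members called and a median log2 fold change of 0.05.

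Genes that work with the ribosome were compared in lists. Of all genes tested, 10.6% were called, 5.29% higher and 5.32% lower in DEN. No list was tested as a set, and the genes named are described singly. Rack1, a signalling scaffold on the small subunit, was not called, with a log2 fold change of 0.02 (SE 0.11). It had 90.7, 91.3 and 100.2 RPKM in DEN, against 114, 87.8, 81.3 and 88.9 RPKM in Sham libraries. Elongation factors and other genes with TOP mRNAs had 0 of 16 called, where 10.6% of all genes were, and their median log2 fold change was 0.04. Eef1a1, which delivers aminoacyl-tRNA, had 1527, 1495 and 1653 RPKM in DEN, against 1532, 1246, 1187 and 1308 RPKM in Sham libraries, with a log2 fold change of 0.24 (SE 0.10). Without Sham replicate 1, Eef1a1 was called higher, at 0.32 and an edgeR adjusted p of 0.0372.

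The proteins of the mitochondrial ribosome, which translates the few mRNAs of that organelle's own genome, had 0 of 77 genes called, against 10.6% of all genes. Their median log2 fold change was 0.09, and 67 of the 77 lay above 0. Whether these signs rest on single libraries was not tested. Mrpl23 had 25.3, 24.4 and 25.8 RPKM in DEN, against 22.3, 23.7, 24.8 and 24.1 RPKM in Sham libraries.

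Ribosome biogenesis genes, which act in the nucleolus to make and process ribosomal RNA and join it with the proteins, had 1 of 41 called. That gene was lower in DEN and 0 were called higher, a share of 2.44% against 10.6% of all genes. The log2 fold change was below 0 in 30 of the 41, with a median of -0.12. Whether these signs rest on single libraries was not tested. Groups did not overlap in 13 of the 41, against 4083 of the 17454 genes tested (23.4%). Ncl, encoding nucleolin, a main protein of the nucleolus, fell in DEN, with 20.2, 20.7 and 23.2 RPKM in DEN, against 29.1, 25.5, 25.8 and 26.6 RPKM in Sham libraries. All DEN libraries were below all Sham libraries. Its log2 fold change was -0.32 (SE 0.08), with an edgeR adjusted p of 0.0250, which became 0.110 without DEN replicate 2, 0.0828 without DEN replicate 3 and 0.0507 without Sham replicate 4.

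Initiation factors, which bring mRNA, the first tRNA and the subunits together, had 2 of 26 called higher and 2 lower, including Eif6 at 0.27. The calls made up 15.4% of this list, against 10.6% of all genes. Eif1a, which helps the small subunit scan for the start codon, rose, with 30.6, 24.5 and 24.5 RPKM in DEN, against 19.4, 17.7, 16.9 and 18.6 RPKM in Sham libraries, and a log2 fold change of 0.55 (SE 0.09). Eif3a, a scaffold of the eIF3 complex, fell, with 18.5, 18.2 and 19.5 RPKM in DEN, against 25.2, 23.0, 23.0 and 24.4 RPKM in Sham libraries, and a log2 fold change of -0.35 (SE 0.07). Eif5, which triggers GTP hydrolysis at the start codon, fell, with 27.3, 26.1 and 28.7 RPKM in DEN, against 33.7, 33.0, 34.7 and 34.7 RPKM in Sham libraries, and a log2 fold change of -0.31 (SE 0.07). The edgeR adjusted p of Eif3a was 0.00921 and became 0.0843 with all 8 libraries. That of Eif5 was 0.0143 and became 0.0590 without DEN replicate 2 and 0.0592 without DEN replicate 3.

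Genes of the mTORC1 pathway and of TOP mRNA control had 1 of 18 called higher and 3 lower, including Larp4 at -0.28. The calls made up 22.2% of this short list, against 10.6% of all genes. Eif4ebp1, the repressor of cap-dependent initiation that mTORC1 phosphorylates, rose, with 46.3, 56.7 and 54.1 RPKM in DEN, against 40.8, 39.1, 38.7 and 40.4 RPKM in Sham libraries, and a log2 fold change of 0.40 (SE 0.08). Its edgeR adjusted p was 0.0112, and 0.0571 without DEN replicate 4 and Sham replicate 1. Sesn1, of the sestrin family that restrains mTORC1, fell by 0.33 on the log2 scale (SE 0.09), with 44.9, 41.9 and 43.0 RPKM in DEN, against 57.0, 50.4, 49.6 and 61.1 RPKM in Sham libraries. Rps6kb1, the S6 kinase that phosphorylates the Rps6 protein, also fell by 0.33 (SE 0.09), with 3.19, 3.68 and 3.59 RPKM in DEN, against 4.07, 4.44, 4.4 and 4.68 RPKM in Sham libraries. The edgeR adjusted p of Sesn1 was 0.0330, and was 0.0745, 0.105 and 0.0919 without DEN replicate 2, 3 or 4 and 0.0611 and 0.0687 without Sham replicate 1 or 4. It was 0.133 without DEN replicate 4 and Sham replicate 1. That of Rps6kb1 was 0.0472, and was 0.176, 0.0725 and 0.0895 without DEN replicate 2, 3 or 4 and 0.0981, 0.0926 and 0.108 without Sham replicate 2, 3 or 4. It was 0.0702 without DEN replicate 4 and Sham replicate 1, and 0.0601 with no filter on low counts.

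Free ribosomal proteins can bind Mdm2 as part of a particle with 5S ribosomal RNA and so stabilise p53. Genes of that route had 1 of 10 called in each direction, where 5.29% of all genes were called higher and 5.32% lower. Phlda3, a p53 target that restrains Akt, rose, with 113.8, 99.96 and 117.7 RPKM in DEN, against 72.9, 71.2, 66.7 and 63.0 RPKM in Sham libraries, and a log2 fold change of 0.69 (SE 0.08). Cdkn1a, the p21 inhibitor of the cell cycle and also a p53 target, fell, with 11.2, 7.98 and 7.49 RPKM in DEN, against 16.9, 18.1, 19.6 and 24.6 RPKM in Sham libraries, and a log2 fold change of -1.16 (SE 0.17). The groups did not overlap for either gene.

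Markers of some other cells differed between the groups, where 10.6% of all genes tested were called. Erythroid genes had 7 of 8 called lower in DEN, with a summed level of 1989 to 3005 CPM in DEN and 5120 to 10280 in Sham libraries. Schwann cell markers had 3 of 7 called higher and 2 lower, with a summed level of 145 to 291 CPM in DEN and 263 to 383 CPM in Sham libraries. Markers of fibro-adipogenic progenitors had 1 of 7 called higher and 2 lower (2227 to 2473 CPM in DEN and 2953 to 4053 CPM in Sham libraries), and those of smooth muscle and pericytes 1 of 7 higher and 2 lower. Macrophage markers had 1 of 6 called higher. Their summed level overlapped between the groups, at 2.42 to 103 CPM in DEN and 14.7 to 50.5 CPM in Sham libraries. Endothelial (8) and lymphocyte (3) markers had 0 called. The part of all these other cells in the members' values was not tested. Mitochondrially encoded genes took 2.35% to 2.84% of counts in DEN and 3.67% to 5.99% in Sham libraries. With mitochondrially encoded and hemoglobin genes left out of the library sizes, 0 members were called and the median log2 fold change was 0.04. Of 12 MuSC markers 2 were called higher, and Pax7, the transcription factor that defines these cells, had 23.8, 22.5 and 26.7 RPKM in DEN, against 26.0, 19.6, 22.1 and 17.98 RPKM in Sham libraries.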

How the data were processed

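The deposited counts are whole reads per gene, made by the authors with cutadapt 2.1 for trimming, TopHat2 2.1.0 for alignment to GRCm38 (1 alignment kept per read) and featureCounts 1.6.5 for unstranded counting, as the submitters' processing notes name them. RPM values, also deposited, are counts scaled to library total by the authors. They were used only to derive the gene lengths behind RPKM, including those that set short and long genes apart. The deposited RPKM values are RPM per kilobase by the authors and are printed as levels. Genes passing filterByExpr (minimum count 10, minimum total 15) were compared by edgeR 4.0.16's quasi-likelihood test with TMM scaling (factors 0.9902 to 1.006) in R 4.3.3, and p-values were adjusted over all genes tested by the method of Benjamini and Hochberg. Each sample is 1 library. The script was tested on simulated data.

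Alternatives were DESeq2 1.42.0, limma 3.58.1, other scalings and filters, all 8 libraries, a replicate block, pseudogene rows added to their parents, and each library left out. After the data were seen, 2 were added: leaving out DEN replicate 4 with Sham replicate 1, and protein-coding members only. The members and lists were chosen with earlier results of these data known. Genes were named by rule: the 3 members with the highest RPKM, paralogue pairs, and from each list up to 3 called genes or the most abundant one. Some of these are not reported here. Rpsa, Rps3, Rpl41 and Rps10 were named after their values were seen. Positions and exon overlaps are those of GENCODE M21, and start windows those of RefSeq on GRCm38.p6. Protein sequences were not used here. At these depths 81 of 91 members had a median count above 1000, so counting error was small beside the spread between libraries.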

Additional observations from a re-analysis of the deposited data

Results flagged for a closer look

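For 23 members followed singly and the members' summed and median level, 50 groups of 4 libraries were searched for a library far from the rest, and 4 were found, where chance gives about 1 in 20. Rpl41 stood at 371 RPKM in DEN replicate 4, against 277 to 288 RPKM in the other DEN libraries. In Sham replicate 1, Rpl7 stood at 201 RPKM, against 166 to 171 RPKM in the other Sham libraries. Rps4x stood at 307 RPKM in Sham replicate 1, against 247 to 253 RPKM in the others. Rps4l stood at 28.7 RPKM in Sham replicate 3, against 21.98 to 22.6 RPKM in the other Sham libraries.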

How the results depend on the processing

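The count of members called was 0 under each alternative except without DEN replicate 4 (1, Rpl39), without Sham replicate 1 (1, Rpsa) and without both (1, Rpl39), so leaving out 1 library gave 0 to 1. The median log2 fold change of the members moved by less than the spread between libraries (SD 0.195) in all 20 alternatives tallied. That spread is wider than the main median of 0.05, so a change of sign also passed. Among these values were -0.08 without DEN replicate 4, -0.02 without that library and Sham replicate 1, and 0.13 without DEN replicate 3. The difference in share was -0.060 to 0.205 percentage points with 1 library left out. Of 457 values of 23 members followed singly, 30 changed sign, 25 of them by less than 1 standard error. The others were Rps27 without DEN replicate 4 (range with 1 library left out -0.082 to 0.24), Rpl36al without DEN replicate 4 (-0.16 to 0.14) and without it and Sham replicate 1 (-0.17), Rpl39l without both (0.22, against -0.88 to -0.21 with 1 library left out) and Rps10 with pseudogene rows added (0.037). The 11 calls among genes of the context lists became 21 with DESeq2, 5 with the replicate block and 5 to 11 with 1 library left out. The cause was not tested. Replicate numbers did not pair the libraries: correlations of same-numbered deviations were -0.01, 0.01 and -0.06. With the replicate block, 0 members were called, 7 had an unadjusted p under 0.05 in edgeR, the median was 0.09, and calls among all genes were 1335, against 1853 without it. The edgeR adjusted p with the replicate block was 0.0753 for Ncl, 0.0559 for Eif5, 0.0961 for Sesn1 and 0.0771 for Rps6kb1. DESeq2 called 2656 genes, and the fit relative to the members' sum 1065. With 1 library left out, Rpl39l did not pass the filter in 2 settings. Depth limited the low-count members: the 95% interval of Rpl3l ran from -0.40 to 1.76 on the log2 scale.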
